A study of Mus musculus with 6 samples.

Results

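The genes described here are 36 genes for non-collagen proteins of the fibroblast extracellular matrix and of elastic fibres, followed over days 3, 5 and 7 of reprogramming. Members were taken by name, with earlier results of these data known. The value of a gene is that of 1 probe set, the one with the highest mean among the probe sets whose annotation names that gene and no other. By this rule 33 of the 36 genes had a value, out of 18193 genes on the array, and 31 were bright enough to test, out of 12622. Fbn1, Efemp2 and Loxl2 are not analysed here; both probe sets that name Loxl2 also name another gene. Mfap4 and Hapln1 lay under the level needed for a test.

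All 6 arrays held RNA of embryonic fibroblasts of B6CBAF1/J mice that received OCT4, SOX2 and KLF4, factors that can turn a differentiated cell into a pluripotent one. OCT4 was given either in a version that the labels call 5R, in the combination O(5R)SK, or as wild type, in the combination O(WT)SK. Both were kept in a medium for embryonic stem cells that held serum and recombinant leukemia inhibitory factor, and each combination was sampled on days 3, 5 and 7 with 1 Affymetrix array a day. There was no replicate of any combination and day. The labels state neither what 5R stands for, nor how the factors were delivered, nor which share of the cells received them. Fibroblasts without the factors are not analysed here, so day 3 is the earliest state described.

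Fibroblasts secrete most of the matrix of connective tissue. Small leucine-rich proteoglycans sit on collagen fibrils and control how these assemble. Matricellular and adhesive glycoproteins link cells to the matrix. Elastic fibres have a core of elastin on a scaffold of fibrillin microfibrils, with fibulins as adaptors, and enzymes of the lysyl oxidase family cross-link elastin and collagen. During reprogramming, fibroblast genes are known to be shut down as cells pass toward an epithelial and later a pluripotent state.

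The deposited values had a 2% trimmed mean of 500 on each array. The brightest probe set reached 34285 on the O(5R)SK day 7 array, and between 40353 and 47606 on the other 5 arrays. Of the defining fibroblast markers, 14 of 14 were above the level needed for a test. Their summed intensity was 132553, 130570.0 and 116985 on days 3, 5 and 7 with O(5R)SK, against 140372, 148321 and 156772 with O(WT)SK. Across the whole array, 10.2% of the 12622 genes passed the threshold between day 7 and day 3, at a Benjamini-Hochberg adjusted p under 0.05 in limma, with 6.52% higher and 3.68% lower on day 7. Between the combinations 0% passed.

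Between day 3 and day 7 the matrix genes did not move one way. Fmod, which encodes fibromodulin, rose 6.70-fold and its chromosomal neighbour Prelp rose 3.27-fold, while Fbln1, Serpinf1, Postn and Loxl1 fell. Efemp1, which encodes fibulin-3, rose 1.58-fold. These 7 of 31 tested members passed the threshold and are named as called, 3 higher and 4 lower on day 7. The share was 22.6%, beside the 10.2% of all genes given above. The members were chosen with earlier results of these data known, so this gap is no independent evidence. It also varies with the filter on dim genes. With the 60th percentile as filter, 22.3% of all genes passed, beside 8 members higher and 4 lower of 29 tested. Over all tested members 18 differences were above 0 and 13 below, with a median of 0.10 on the log2 scale, against 0.03 for all genes. In bulk RNA, fewer cells of a type and less RNA per cell cannot be told apart.

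The promoters of 4 members that passed the threshold are shown, because Fmod and Prelp are neighbours that rose together and Serpinf1 and Fbln1 showed the largest decreases. Each is the reference sequence of RefSeq on the build GRCm38.p6, from 250 bases before to 50 after the annotated start, written 5′ to 3′ on the gene's strand. Capitals mark matches, on either strand, to the 10 motifs named in the next paragraph.
Fmod, chr1:134037004-134037303, plus strand: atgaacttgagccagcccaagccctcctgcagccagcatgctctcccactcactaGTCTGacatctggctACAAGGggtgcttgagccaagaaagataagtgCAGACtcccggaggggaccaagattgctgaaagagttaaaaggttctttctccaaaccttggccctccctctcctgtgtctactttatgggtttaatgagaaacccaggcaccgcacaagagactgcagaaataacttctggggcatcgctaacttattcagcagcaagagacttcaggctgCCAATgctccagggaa
Prelp, chr1:133921352-133921651, minus strand: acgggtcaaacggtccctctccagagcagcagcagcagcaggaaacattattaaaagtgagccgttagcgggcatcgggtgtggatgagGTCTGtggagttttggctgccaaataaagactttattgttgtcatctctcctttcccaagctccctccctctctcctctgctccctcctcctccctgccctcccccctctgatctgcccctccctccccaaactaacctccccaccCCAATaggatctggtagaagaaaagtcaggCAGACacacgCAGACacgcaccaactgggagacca
Serpinf1, chr11:75422574-75422873, minus strand: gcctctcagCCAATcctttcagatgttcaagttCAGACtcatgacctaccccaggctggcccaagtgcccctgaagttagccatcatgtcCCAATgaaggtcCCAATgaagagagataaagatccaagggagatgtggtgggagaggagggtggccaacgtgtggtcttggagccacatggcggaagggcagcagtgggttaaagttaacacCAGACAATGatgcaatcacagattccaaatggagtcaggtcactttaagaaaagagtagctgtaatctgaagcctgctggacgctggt
Fbln1, chr15:85205699-85205998, plus strand: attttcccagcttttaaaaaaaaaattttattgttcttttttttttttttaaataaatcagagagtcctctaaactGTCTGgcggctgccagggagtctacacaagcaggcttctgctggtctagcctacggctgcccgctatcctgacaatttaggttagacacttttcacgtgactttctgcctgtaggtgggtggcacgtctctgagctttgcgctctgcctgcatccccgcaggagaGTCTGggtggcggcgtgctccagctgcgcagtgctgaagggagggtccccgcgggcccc

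A promoter was at hand for 23 of the 36 members and for 27025 genes in all. Of the called members, 6 of 7 had one; Loxl1 had none in the table used, and for Fbln1 and Postn the first of 2 listed starts was taken. The SMAD-binding letters CAGAC lay in 14 of the 23 members' promoters, or 60.9%, against 49.7% of all promoters, and in each of the 6 called members that had one. Fmod held them at 2 places, Prelp at 3, Serpinf1 at 2 and Fbln1 at 2. The KLF and SP letters GGGCGG were in 52.2% of the members' promoters, against 35.9% of all, but in 1 of the 6 called members, Efemp1. The CCAAT box, CCAAT, was in 39.1% against 37.9%, and 3 copies of it lay in the Serpinf1 promoter. The SOX letters ACAANG were in 21.7% against 41.6%; in Serpinf1 their match overlaps a CAGAC. The TATA letters TATAAA were in 17.4% against 14.2%, the AP-1 letters TGANTCA in 4.35% against 7.93%, the TEAD letters GGAATG in 4.35% against 14.6%, and the octamer ATGCAAAT in 4.35% against 1.75%. The palindrome GTCTAGAC, known as the SMAD box, was in 0% against 0.211%, and the CArG box in 0% against 1.57%. These matches describe letters in a window and were not tested as binding sites.

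The small leucine-rich proteoglycans held the largest change. Fibromodulin binds collagen fibrils and steers their maturation in tendon and other tissues. Fmod had intensities of 224, 462 and 1417 on days 3, 5 and 7 with O(5R)SK, against 243, 579 and 1927 with O(WT)SK. Every day was higher than the one before it in both combinations, and no day 3 array overlapped a day 7 array. The log2 difference between day 7 and day 3 was 2.74 (SE 0.121, limma adjusted p = 0.00765), with a 95% confidence interval of 2.43 to 3.06. Most of it came after day 5: the step to day 5 was 1.10 and the step from day 5 to day 7 was 1.65.

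Prelp encodes a proline- and arginine-rich repeat protein that anchors basement membranes to connective tissue. It had intensities of 3039.6, 7093 and 9675 with O(5R)SK, against 3930.2, 9003 and 13276 with O(WT)SK. It was higher on day 7 than on day 3 in both combinations, by 1.71 on the log2 scale (SE 0.0971, adjusted p = 0.00765, interval 1.45 to 1.96). Here most of the difference was reached by day 5, with a step of 1.21 and a further 0.50 to day 7. Fmod and Prelp lie side by side on chromosome 1 with 0 protein-coding genes between them. The gene on the far side of Prelp, Optc, encodes another proteoglycan of this family, opticin, and is no member; it was looked up after its neighbours' values were seen. Optc went the other way, with 126, 94.7 and 33.9 with O(5R)SK, against 135, 73.2 and 56.8 with O(WT)SK, a log2 difference of -1.28 (SE 0.221, adjusted p = 0.038).

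Ogn and Aspn, which encode osteoglycin and asporin, lie close together on chromosome 13 with Omd, osteomodulin, between them. Neither member passed the threshold. Aspn had 199, 214 and 344 with O(5R)SK, against 252, 175 and 336 with O(WT)SK, a log2 difference of 0.57 between day 7 and day 3 (SE 0.166, adjusted p = 0.105). Its day 7 values were the highest in both combinations, and the day 5 value was the lowest with O(WT)SK. Ogn had 413, 445 and 634 with O(5R)SK, against 438, 496 and 552 with O(WT)SK, a difference of 0.46 (SE 0.126, adjusted p = 0.0927). Omd, no member, differed by 1.06 (adjusted p = 0.075).

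Lum and Dcn, for lumican and decorin, are neighbours on chromosome 10, and both proteins limit the width of collagen fibrils. Lum was dim, with 135, 70.4 and 103 with O(5R)SK, against 72.4, 44.0 and 65.2 with O(WT)SK. In both combinations day 5 was its lowest day; the step to day 5 was -0.68 (adjusted p = 0.112) and the step from day 5 to day 7 was 0.45 (adjusted p = 0.243). Dcn had 3936, 4168 and 4026 with O(5R)SK, against 4439, 4880.3 and 5731 with O(WT)SK. Its difference over the days was 0.20, with an interval of -0.13 to 0.53. Bgn, for biglycan, stayed between 16832 and 19649.7 on all 6 arrays, a difference of 0.02 with an interval of -0.25 to 0.30.

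**Figure D1:**
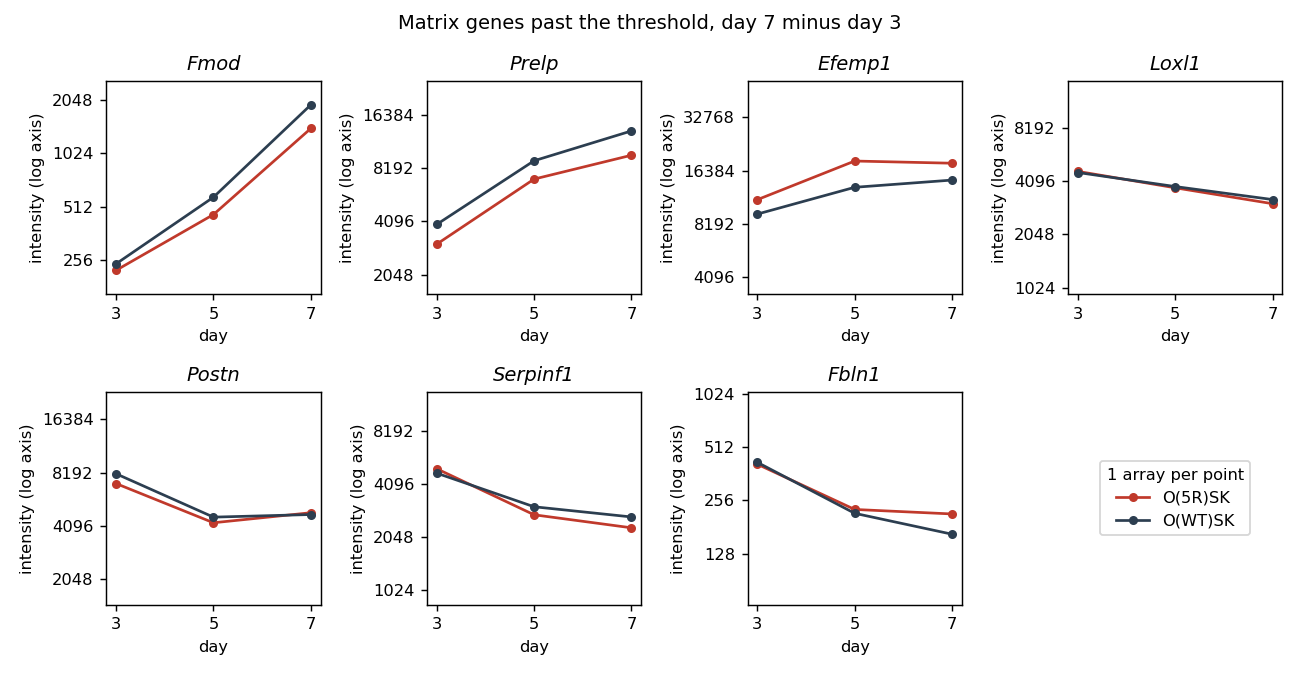
Intensity (log axis) of the 7 matrix genes past the threshold between day 7 and day 3, by day, with 1 array per point and 1 line per combination. Fmod has 224, 462 and 1417 with O(5R)SK and 243, 579 and 1927 with O(WT)SK, while Fbln1, Serpinf1, Postn and Loxl1 end below their day 3 values in both.

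Among the adhesive and matricellular glycoproteins, 1 of 7 passed the threshold. Periostin, the product of Postn, binds collagen and fibronectin and is made by activated fibroblasts. Postn had 7100.0, 4262 and 4857 with O(5R)SK, against 8064, 4586 and 4744 with O(WT)SK, and both day 7 values lay below both day 3 values. It fell by 0.65 on the log2 scale (SE 0.106, adjusted p = 0.0339). The whole decrease lay before day 5, with a step of -0.77, and the step from day 5 to day 7 was 0.12.

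Tnc, for tenascin-C, a glycoprotein of remodelling tissue, had 21584, 18919.7 and 15296 with O(5R)SK, against 19672, 17788 and 16617 with O(WT)SK. Each later day was lower in both combinations, with a difference of -0.37 between day 7 and day 3 (SE 0.112, adjusted p = 0.112) that missed the threshold. A second Tnc probe set ran the other way, at 0.20, because its O(5R)SK day 7 value was 1441, against 695 with O(WT)SK on that day. Thbs2, for thrombospondin-2, a matricellular inhibitor of blood vessel growth, gave the widest disagreement between probe sets. The one used had 3938, 2524 and 3221 with O(5R)SK, against 3850.2, 2956 and 3517 with O(WT)SK, with a step of -0.51 to day 5 and a difference of -0.21 over the whole interval. The other Thbs2 probe sets differed by 0.95 and 1.35 between day 7 and day 3, so no direction is given for this gene.

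Sparc and Fn1, for osteonectin and fibronectin, were followed by the same measure. Sparc had 33748, 32951 and 29455 with O(5R)SK, against 33980.1, 38105 and 39820.2 with O(WT)SK. Its mean difference between day 7 and day 3 was 0.02, with an interval of -0.34 to 0.37. On this probe set its later values lay below day 3 with 5R and above it with wild-type OCT4. A second bright Sparc probe set lay above day 3 in both. It had 16684, 18701 and 16729 with O(5R)SK, against 17182, 19056 and 22638 with O(WT)SK. Fn1 had 25986, 22881 and 20319 with O(5R)SK, against 26297, 27085 and 26664 with O(WT)SK, a difference of -0.17. A second, dimmer Fn1 probe set had 832, 834 and 889 with O(5R)SK, against 814, 768 and 711 with O(WT)SK. Thbs1 and Fstl1, for thrombospondin-1 and follistatin-like 1, differed by -0.06 and 0.36, and neither passed the threshold.

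Of the hyaluronan matrix genes, Has2, the main hyaluronan synthase of mesenchymal cells, had 789.7, 1079 and 1007 with O(5R)SK, against 733, 1173 and 1157 with O(WT)SK. Both day 3 arrays were the lowest, the step to day 5 was 0.55 and the difference at day 7 was 0.50 (SE 0.119, adjusted p = 0.0706), which did not pass. Vcan, for the hyaluronan-binding proteoglycan versican, ranged from 2191 to 2783, with a difference of -0.27 (adjusted p = 0.157), and its other bright probe sets gave -0.40 and -0.38. Hapln1, the link protein that ties such proteoglycans to hyaluronan, was between 3.00 and 23.2 on all arrays and was not tested.

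In the elastic fibre core and microfibrils 0 of 5 tested genes passed the threshold, and their differences lay between 0.10 and 0.27. Eln, for elastin itself, was near the lower limit of the test, with 48.2, 59.6 and 33.6 with O(5R)SK, against 44.6, 41.7 and 80.0 with O(WT)SK. Its interval for day 7 minus day 3 was the widest of all members, from -0.75 to 1.05. Fbn2, for fibrillin-2, the fibrillin of developing tissue, had 1559.9, 1645 and 2037 with O(5R)SK, against 1362, 1088 and 1203 with O(WT)SK. On this probe set it was highest on day 7 with 5R and highest on day 3 with wild-type OCT4. A second Fbn2 probe set was highest on day 7 in both combinations. It had 1346, 1116 and 1451 with O(5R)SK, against 1021, 949 and 1103.5 with O(WT)SK. Emilin1, a glycoprotein at the interface of elastin and microfibrils, had 709.6, 659 and 659.5 with O(5R)SK, against 571, 640.0 and 819 with O(WT)SK.

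The microfibril-associated proteins followed no common course. Mfap5 had 1028, 1337 and 1100.3 with O(5R)SK, against 1055, 1627 and 1446 with O(WT)SK. It was highest on day 5 in both combinations, with a step of 0.50 to day 5 (adjusted p = 0.187) and of -0.22 after it. Mfap2 ranged from 281 to 347 with a difference of 0.16, and a second, dimmer probe set gave -0.38. Mfap4 was between 2.40 and 9.43 on all arrays and was not tested.

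The fibulins split. Fbln1, for fibulin-1, a protein of elastic fibres and basement membranes, had 409, 227 and 214 with O(5R)SK, against 419.6, 216 and 165 with O(WT)SK. It fell by 1.08 on the log2 scale (SE 0.132, adjusted p = 0.020), the largest decrease among the members, and -0.86 of this had come about by day 5. Efemp1 had 11226, 18567 and 18045 with O(5R)SK, against 9307, 13191 and 14491 with O(WT)SK. It rose by 0.66 (SE 0.108, adjusted p = 0.0343), and 0.61 of this was reached by day 5; a single probe set measured it. Fbln5, an adaptor that elastic fibre assembly needs in mice, ranged from 14295 to 20706 with a difference of 0.33 (adjusted p = 0.124), and its second probe set gave 0.82. Fbln2 ranged from 10264 to 12015, with a difference of -0.06.

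Among the enzymes and enhancers of cross-linking and collagen processing, Loxl1, the family member tied to elastin renewal in mice, passed the threshold. Loxl1 had 4649.7, 3754 and 3052 with O(5R)SK, against 4582, 3817 and 3222 with O(WT)SK. It fell by 0.56 (SE 0.096, adjusted p = 0.0383), in nearly equal steps of -0.29 and -0.27. Lox, the founding lysyl oxidase, had 19715, 19768 and 17375 with O(5R)SK, against 20642, 23012 and 23269 with O(WT)SK, a mean difference of -0.0047 with an interval of -0.33 to 0.32. Loxl3 ranged from 2488 to 3309, with a difference of -0.22. Loxl4 had 611, 653 and 707 with O(5R)SK, against 542, 593 and 693 with O(WT)SK, a difference of 0.28 (adjusted p = 0.151). Pcolce, which enhances the cutting of procollagen, ranged from 11582 to 16568 with a difference of 0.42 (SE 0.103, adjusted p = 0.0742), and both of its probe sets had the same sign.

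Serpinf1 encodes pigment epithelium-derived factor, a secreted serpin that inhibits blood vessel growth and binds collagen. It had 4994, 2742 and 2314 with O(5R)SK, against 4714, 3044 and 2666 with O(WT)SK. It fell by 0.96 (SE 0.117, adjusted p = 0.020), and the step of -0.74 to day 5 was larger than the later one of -0.22. Both day 7 arrays lay below both day 3 arrays, and the second Serpinf1 probe set gave -1.06.

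**Figure D2:**
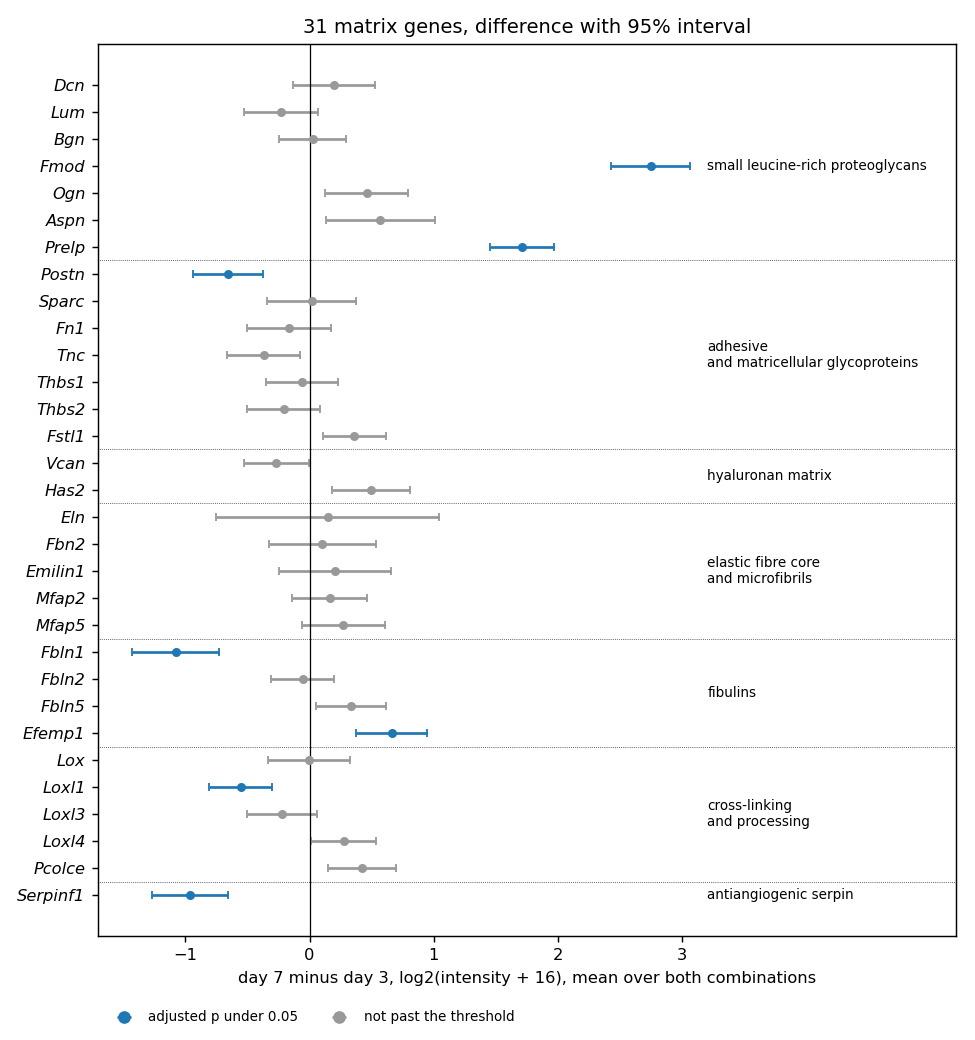
Day 7 minus day 3 on the log2(intensity + 16) scale for the 31 tested matrix genes, as the limma estimate over both combinations with its 95% interval, ordered by role. The 7 coloured genes passed the adjusted threshold, from 2.74 for Fmod down to -1.08 for Fbln1, and the elastic fibre core and microfibril genes lie between 0.10 and 0.27.

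The calls rest on few arrays. With any 1 of the 4 arrays of days 3 and 7 left out, 0 members passed, as did 0 of all genes, and the adjusted p of Fmod was up to 0.0987. With either day 5 array left out, Fmod, Prelp, Efemp1, Fbln1 and Serpinf1 still passed. With no filter on dim genes 0 members passed, with adjusted p-values of 0.0618 to 0.124 for the 7, and with all arrays shifted to a common median Efemp1 did not pass (adjusted p = 0.061).

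At an unadjusted p under 0.05, which makes no allowance for the number of genes, 16 of 31 members differed between day 7 and day 3, or 51.6%, against 30.6% of all genes. As single values without a test, Fmod and Prelp were at least 2-fold higher and Serpinf1 at least 2-fold lower on day 7 with O(5R)SK, where 4.37% of all genes were higher and 1.59% lower by that measure. With O(WT)SK, Fmod and Prelp were at least 2-fold higher and Fbln1 at least 2-fold lower, where 3.53% of all genes were higher and 1.89% lower. The sign of the difference was the same in both combinations for 23 of 31 members, or 74.2%, against 69.7% of all genes.

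The step to day 5 was larger than the step after it for 6 of the 7 called members, all but Fmod. Over the tested members the larger step lay before day 5 in 17 of 31, or 54.8%, against 6550 of all 12622 genes, or 51.9%. Over all genes past the threshold it did so in 758 of 1287, or 58.9%. In limma, 0 of 31 members and 0% of all genes passed between day 5 and day 3, where 12 members, or 38.7%, had an unadjusted p under 0.05, against 2041 genes, or 16.2%, on the whole array. Between day 7 and day 5 the count was again 0 of 31 and 0% of all genes, with 6 members, or 19.4%, under that mark, against 1745 genes, or 13.8%. The smallest adjusted p among members was 0.0712 for day 5 against day 3, for Prelp, and 0.0938 for day 7 against day 5, for Fmod.

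**Figure D3:**
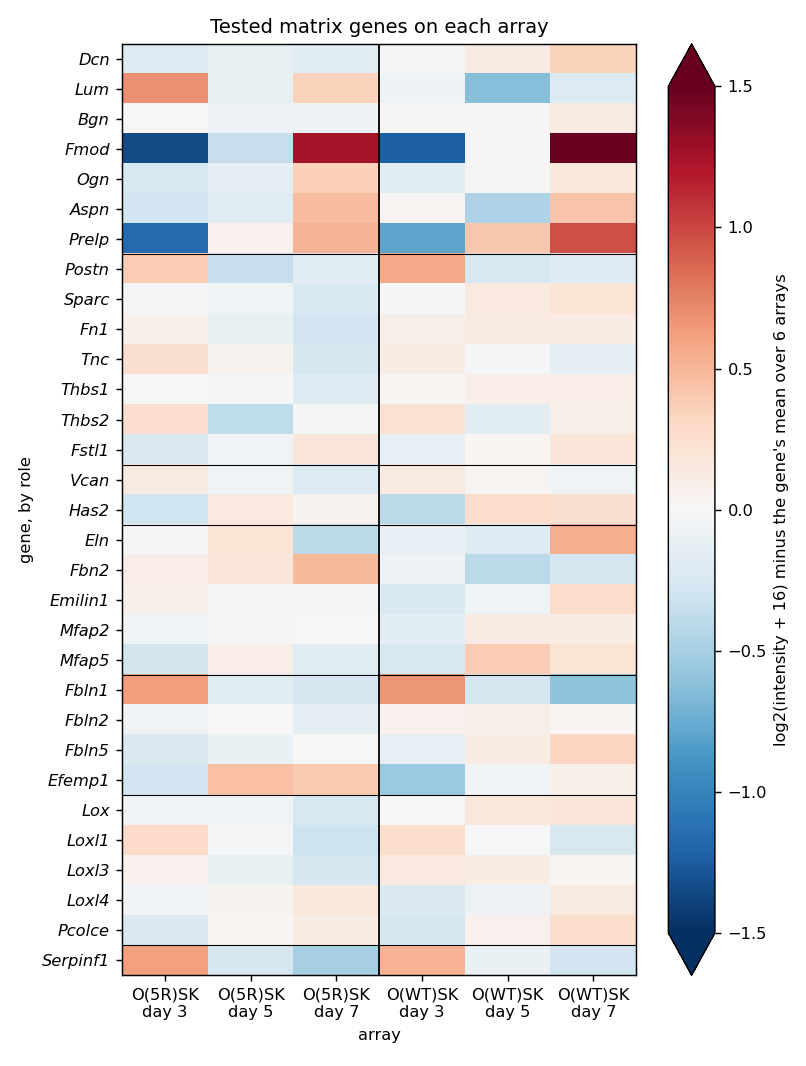
Value of each tested matrix gene on each array as log2(intensity + 16) minus the gene's mean over the 6 arrays, with O(5R)SK in the left 3 columns, O(WT)SK in the right 3, and lines between roles. Fmod and Prelp pass from low to high over the days in both combinations, and most rows stay within a narrow band around 0.

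Many of these genes were read by several probe sets, which share the arrays and are no replicates. Of the 78 probe sets that name 1 member and no other gene, 65 were above the level needed for a test, and 25 members had more than 1 of these. In 19 of the 25, all probe sets had the same sign between day 7 and day 3. All 6 Fmod probe sets were higher on day 7, by 1.92 to 2.74. The second probe set gave 1.52 for Prelp, -0.80 for Fbln1 and -0.64 for Loxl1. The signs differed for Sparc, Tnc, Thbs2, Mfap2, Fbln2 and Lox. For Aspn the signs agreed but the courses did not: its second probe set had 108, 197 and 461 with O(5R)SK, against 137, 121 and 134 with O(WT)SK.

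**Figure D4:**
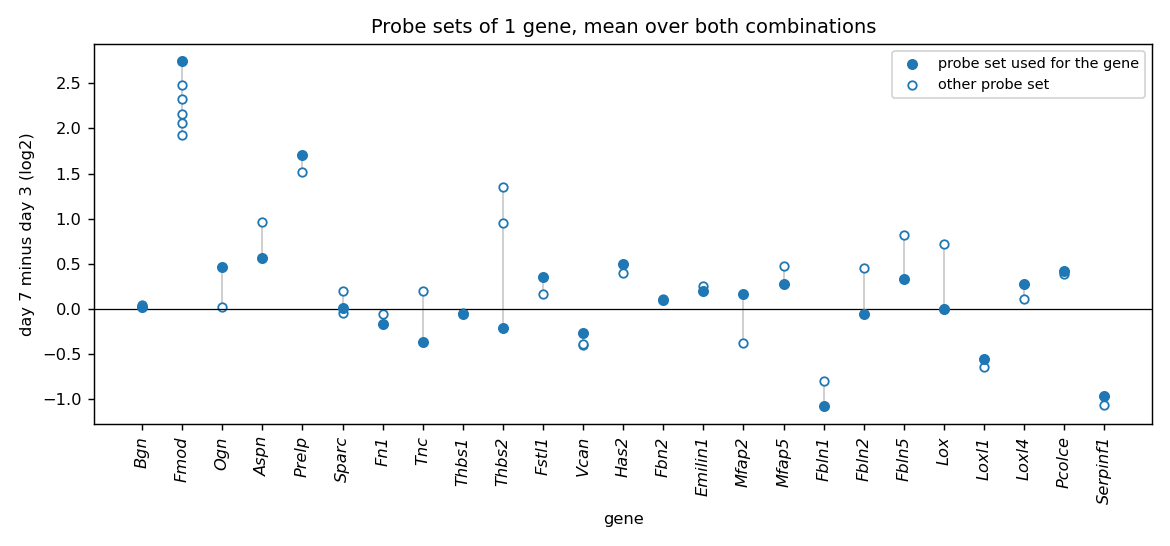
Day 7 minus day 3 (log2, mean over both combinations) for every probe set above the test level of the 25 matrix genes that have more than 1, with the probe set used filled and the others open. The 6 Fmod probe sets lie between 1.92 and 2.74, and those of Thbs2 between -0.21 and 1.35.

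Between O(5R)SK and O(WT)SK, averaged over the days, 0 of 31 members passed the threshold in limma, where 0% of all genes did. At an unadjusted p under 0.05 there were 6 members, or 19.4%, against 1180 genes, or 9.35%, on the whole array. Their differences were above 0 for Lum, Fbn2 and Efemp1 and below 0 for Prelp, Dcn and Fmod. Lum had the smallest adjusted p, with a log2 difference of 0.62 (SE 0.0914, interval 0.37 to 0.86, adjusted p = 0.284), and its 3 values with 5R were above the wild-type value of the same day. Fbn2 differed by 0.51 (SE 0.133, adjusted p = 0.424), was above 0 in both of its probe sets, and differed by 0.19, 0.59 and 0.75 on days 3, 5 and 7. Efemp1 differed by 0.36 (adjusted p = 0.393).

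Prelp differed by -0.39 (SE 0.0793, interval -0.60 to -0.18, adjusted p = 0.362) and was lower with 5R on each of the 3 days. Only with a variance trend and robust prior in limma did it pass, at an adjusted p of 0.038. Dcn differed by -0.30, and by -0.17, -0.23 and -0.51 on days 3, 5 and 7; with the mean of both its probe sets, of which the second is dim, the difference was -0.00035. Fmod differed by -0.29, but of its 6 probe sets 4 were negative and 2 positive. Lox and Mfap5 each differed by -0.24 (SE 0.102). Without either day 7 array, Lox differed by -0.14 and Dcn by -0.20. Fbln1 differed by 0.13, and this was 0.017 without either day 7 array and 0.21 without either day 3 array. Loxl4 differed by 0.11, and by 0.022 with its probe sets averaged.

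Small differences of 1 sign were common among the members. The estimate was below 0 for 24 of 31, with a median of -0.08, against -0.01 for all genes. On all 3 days 14 of 31 members were lower with 5R, or 45.2%, against 17.9% of all genes, and 4 were higher, Lum, Fbn2, Efemp1 and Loxl4. Bright genes made up part of this count. Of the 11 members with a mean intensity over 8000, a mark set after the values were seen, 8 were lower on all 3 days, or 72.7%, against 167 of all 539 genes over this mark, or 30.98%. Their medians on days 3, 5 and 7 were -0.02, -0.10 and -0.21. Those of all 539 bright genes were 0.01, -0.07 and -0.18. Of the 20 dimmer members 6 were lower on all 3 days, or 30.0%, against 17.3% of all dimmer genes. On day 7 alone, 10 of the 11 bright members were lower, or 90.9%, against 79.4% of all bright genes. After quantile normalization, 11 of 31 members were lower on all 3 days, or 35.5%, against 19.0% of all genes. Of the bright members it was then 5 of 11, or 45.5%, against 26.2% of all bright genes. The day 7 median was then -0.05 for the bright members and -0.05 for all bright genes. The part of brightness and array scaling in the other differences was not tested.

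**Figure D5:**
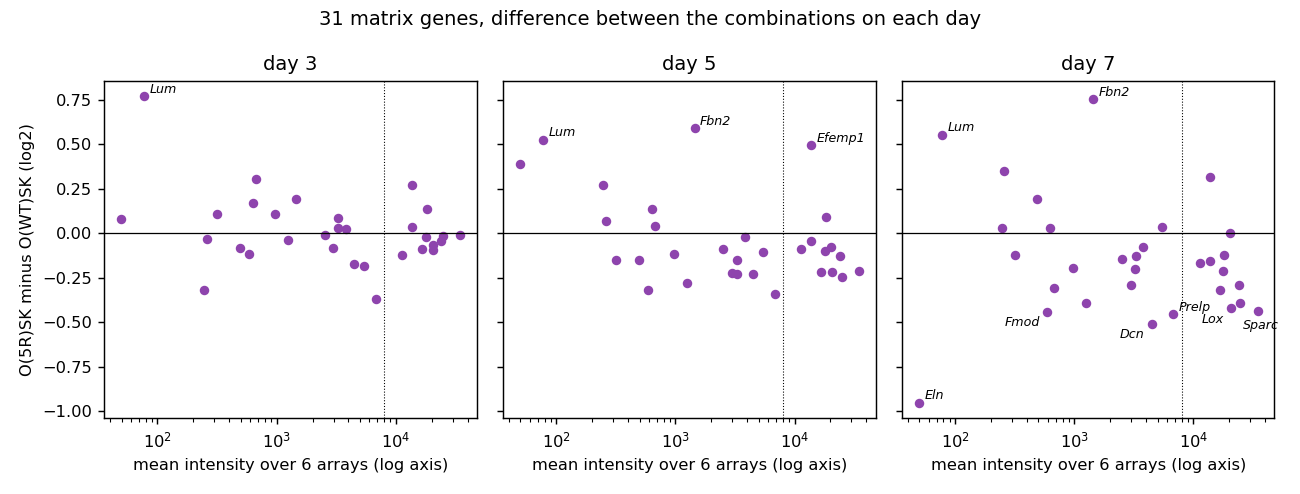
O(5R)SK minus O(WT)SK on each day (log2(intensity + 16), 1 array on each side) for the 31 tested matrix genes against the gene's mean intensity over the 6 arrays (log axis), with a dotted line at 8000. On day 3 the bright members lie around 0 with a median of -0.02, and on day 7 their median is -0.21, while Lum and Fbn2 stay above 0.

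The course over the days was compared between the combinations as a difference of slopes, the change per 4 days with O(5R)SK minus that with O(WT)SK. In limma 0 of 31 members and 0% of all genes passed, and 1 member, Emilin1, had an unadjusted p under 0.05, or 3.23%, against 7.52% of all genes. The fit drew a straight line per combination, so a bend over the days counted as spread, even one that both combinations shared. The SE was 0.53 for Postn and 0.43 for Prelp, against 0.16 for Loxl1, which changed in nearly equal steps. For bent courses the test therefore had little precision. Emilin1 differed by -0.61 (SE 0.185, interval -1.11 to -0.11, adjusted p = 0.647); its second probe set had 142, 151 and 160.1 with O(5R)SK, against 187, 201 and 243 with O(WT)SK. Eln differed by -1.03 with an interval of -2.37 to 0.30, Sparc by -0.42, Fn1 by -0.37 and Lox by -0.35. The second probe sets gave -0.39 for Sparc, 0.29 for Fn1 and -0.25 for Lox. At the other end Fbn2 differed by 0.56, Fbln1 by 0.38, Aspn by 0.35, Ogn by 0.28 and Postn by 0.22. The second probe sets gave -0.0043 for Fbn2, -0.08 for Fbln1, 1.97 for Aspn and -0.08 for Ogn. The sign of Aspn, Fbln1, Postn and Ogn turned when 1 array was left out. The median was -0.21, against -0.01 for all genes. With arrays shifted to a common median, which moved the median of all genes to -0.14, the members' median was -0.34. With quantile normalization it was -0.09, against -0.04 for all genes. The part of brightness in these slopes was not tested.

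Other matrix genes that are no members were counted as a list. Of 56 tested genes of related matrix proteins, 9 were called higher and 5 lower on day 7. Beside each list here stand the 6.52% of all tested genes called higher and the 3.68% called lower. Higher were Frem2, which anchors epithelia to their basement membrane, by 1.52, Mgp, matrix Gla protein, an inhibitor of calcification, by 1.52, and Prg4, lubricin, by 1.35. Lower were Crispld2 by a log2 difference of -1.69, Smoc2 at -0.95 and Ltbp1, which stores latent TGF-beta in the matrix, at -0.88. Of 40 genes that make, modify or export matrix, 2 were called higher and 1 lower, both under the shares of all genes. They were the chondroitin sulfate enzymes Csgalnact1 at 0.75 and Chst11 at 0.55, and, lower, Chst12 at -1.05. Of 35 genes that regulate matrix expression, 0 were called higher and 5 lower, led by Tgfb3 at -1.99, the mechanically responsive gene Ankrd1 at -1.53 and Klf2 at -1.11. Tgfb3 had 7764, 3001 and 1827 with O(5R)SK, against 7364, 2602 and 1971 with O(WT)SK. In the other 4 comparisons 0% of all genes passed, so no gene of these 3 lists could.

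Markers of other cells moved over the same days, and their part in the matrix results was not tested. Their counts stand beside 6.52% of all genes called higher and 3.68% called lower. Of 18 tested macrophage markers 0 were called higher and 12 lower; the summed intensity of the list was 13800.3, 7788 and 6168 with O(5R)SK, against 14279.5, 8648 and 6781 with O(WT)SK. Of 11 smooth muscle markers, which activated fibroblasts share, 6 were called lower, with sums of 176540.0, 152869 and 116395 with O(5R)SK, against 179556, 168042 and 149536 with O(WT)SK. Of 4 tested chondrocyte markers, out of 15 on the array, Sox6 and Col2a1 were called higher, and sums were 1588, 1930.4 and 2664 with O(5R)SK, against 1846, 2063 and 2279.8 with O(WT)SK. Comp, Matn1 and Chad, which define cartilage, were under the test level. Of 12 tested epithelial markers, out of 18 on the array, 4 were called higher and 1 lower, with sums of 3702, 4074 and 5269 with O(5R)SK, against 3705, 3987 and 4047 with O(WT)SK. Of 6 tested endothelial markers, out of 11, 0 were called, with sums of 2263, 1909 and 1824 with O(5R)SK, against 2122, 1956 and 1743 with O(WT)SK. Of 6 tested adipocyte markers, out of 10, 1 was called higher and 2 lower, with sums of 4204, 2351 and 1289 with O(5R)SK, against 4793, 3054 and 2022 with O(WT)SK. Of 13 tested pluripotency genes, out of 24, 7 were called higher and 2 lower, with sums of 7645, 9445 and 14452 with O(5R)SK, against 5419.9, 6523 and 9122 with O(WT)SK. Nanog, Zfp42, Dppa4, Tdgf1, Sall4, Lin28a and Tcl1 were under the test level on every array. Pou5f1 and Sox2, the genes of OCT4 and SOX2, are in this list, and Cdh1 and Epcam are in the epithelial list too. All sums cover every gene of a list on the array, tested or not. Of 14 fibroblast markers, Ddr2 was called higher and Thy1 and Fap lower.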

How the data were processed

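Expression was measured on 6 Affymetrix arrays of reprogrammed mouse embryonic fibroblasts, 1 for each combination and day; groups come from the sample labels. The values the authors deposited are intensities on a linear scale, made with affy, per the submitters' processing notes (version and settings not given in the sources used here). Fold changes are on the log2(intensity + 16) scale computed here from the deposited intensities and understate those of dim genes.

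Of 45101 probe sets, 34945 name 1 gene in the platform annotation, 932 several and 9224 none, among them 64 controls; genes were named only from the first kind. For 9010 genes with several probe sets the one with the highest mean was used, which gave 18193 genes. Genes were tested above the 40th percentile of probe set means, log2 5.63 or an intensity of 33.5, which left 12622. Of the members, 33 matched RefSeq (GRCm38.p6) by gene ID and 0 symbols changed; the array's build is not named. All columns of per-sample values were used (0 left out).

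limma 3.58.1 (lmFit, eBayes) in R 4.3.3 was fitted across all tested genes with combination and day (3 levels) as terms, which left 2 residual degrees of freedom and a prior of 2.60. The difference of slopes used day as a number, per 4 days, with a prior of 2.22. p-values were adjusted by Benjamini-Hochberg over all tested genes, with a threshold of 0.05. The number of arrays limits the precision. Nothing says that the arrays came from separate cultures, so p-values reflect the spread between these arrays alone, and this may be technical. Single days and changes within 1 combination are values without a test.

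The fit was run on simulated data: between day 7 and day 3 it found 55.1% of log2 changes of 1, 91.6% of 2 and 99.1% of 4, and between the combinations 70.3%, 95.5% and 99.4%. The simulated noise was normal and independent between arrays, with variances drawn from the prior that limma had fitted. It held no effect of array scaling or of shared cultures. These rates therefore describe the fit under its own assumptions and not the power of the real arrays.

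Members, lists, motifs and alternatives were chosen with earlier results of these data known. Members past the threshold, and the 5 largest and 5 smallest differences in each comparison, are given with all values, the others by range; of other lists, the 3 largest called differences in each direction. Optc and Omd were named after their values were seen, as were the second probe sets. Alternatives were a pseudocount of 64, quantile normalization, a common median, no filter, the 60th percentile as filter, an average over each gene's probe sets, a variance trend with robust prior, and each array left out. Python 3.11.15, pandas 2.3.3, matplotlib 3.10.9 and version 1.17.8 of data.table were also used.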

Additional observations from a re-analysis of the deposited data

Results flagged for a closer look

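For 5 of the 31 tested matrix genes, or 16.1%, days 5 and 7 both lay on one side of day 3 with O(5R)SK and both on the other side with O(WT)SK; the same held for 1634 of 12622 genes, or 12.9%. The differences of slopes per 4 days, O(5R)SK minus O(WT)SK, were -0.4249 for Sparc (adjusted p = 0.693), -0.3747 for Fn1 (adjusted p = 0.696), -0.2461 for Thbs1 (adjusted p = 0.778), 0.5586 for Fbn2 (adjusted p = 0.705) and -0.6124 for Emilin1 (adjusted p = 0.647), in limma. None of these tests passed the threshold. Thbs1 had 23803, 23541 and 20971 on days 3, 5 and 7 with O(5R)SK, against 24573, 25725 and 25679.6 with O(WT)SK. The day 7 minus day 3 difference of Sparc was -0.20 with O(5R)SK and 0.23 with O(WT)SK, that of Fn1 -0.35 and 0.02, that of Emilin1 -0.10 and 0.51, and that of Fbn2 0.38 and -0.18. All of these are values of the probe set used for the gene. The second probe set did not show the same course in any of these 5 genes. That of Fn1 went the opposite way, with 832, 834 and 889 with O(5R)SK, against 814, 768 and 711 with O(WT)SK.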

How the results depend on the processing

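No paired analysis was possible because each combination and day has 1 array, and day is already a term of the fit. The members called higher on day 7 against day 3 were 3, and 5 with a pseudocount of 64, 0 with no filter, 8 with the stricter filter, 5 with probe sets averaged and 9 with the variance trend. Those called lower were 4, and 0 with no filter and 6 with the variance trend. With no filter 0 of 18193 genes passed. Of all tested genes 10.2% passed in the main fit, in either direction. The share was 15.7% with a pseudocount of 64, 22.3% with the stricter filter, 7.34% with probe sets averaged and 22.5% with the variance trend. The members tested were 31, but 33 with no filter, 29 with the stricter filter and 30 with probe sets averaged. Leaving out 1 array gave 0 to 3 called higher and 0 to 2 called lower, and medians of -0.052 to 0.18. With a common median Efemp1 was lost, at an adjusted p of 0.061.

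Between day 5 and day 3, 2 higher and 3 lower passed with a pseudocount of 64, 4 and 3 with the stricter filter, and 5 and 4 with the variance trend. Of all tested genes 1.78%, 4.23% and 5.11% passed in these settings, in either direction. Between day 7 and day 5, 1 higher passed with a pseudocount of 64, 1 with the stricter filter and 3 with the variance trend, and the median without 1 array was -0.053 to 0.10. The shares of all tested genes in these 3 settings were 0.745%, 1.70% and 2.91%, in either direction. Between the combinations 1 lower, Prelp, passed with the variance trend, where 0.65% of all genes passed.

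Signs turned with the mean of probe sets for Lox between the combinations (0.042), Thbs2 between day 5 and day 3 (0.094), and Fbln1 (0.15) and Tnc (0.10) between day 7 and day 5, and with the second probe set for Tnc between day 7 and day 3 (0.20). Without 1 array, the difference of slopes ran from -1.03 to 1.73 for Aspn, -0.34 to 1.11 for Fbln1, -0.70 to 1.14 for Postn and -0.11 to 0.66 for Ogn. In these fits the slope of the combination that lost an array rested on its remaining days alone. The cause of the turned signs was not tested. Of all values recomputed for single genes, 564 kept direction and side of the threshold or, for another probe set, stayed within the gene's SE. Another 40 lost the threshold, 33 gained it, 12 turned sign and 8 probe sets moved by more than that SE. In comparisons where 0% of genes passed as deposited, keeping the side was nearly fixed in advance.

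A common median moved the median of all genes between day 7 and day 3 to -0.07, and the members' median to 0.00, and of 1171 genes past the threshold 578 were higher; as deposited it was 823 of 1287, and 646 of 1154 after quantile normalization. In total 1985 genes passed with a pseudocount of 64, or 15.7%, 2202 with the stricter filter, or 22.3%, and 2846 with the variance trend, or 22.5%. With probe sets averaged it was 881, or 7.34%.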
